A study of Mus with 8 samples.

Results

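The genes of MHC class I antigen presentation were followed in 3T3-L1 cells, mouse preadipocytes grown as a line that turns into adipocytes when given inducing hormones. The 10 genes were taken by their gene symbols: the heavy chains H2-K1 and H2-D1, the light chain B2m, the peptide transporter genes Tap1 and Tap2, the loading gene Tapbp, the immunoproteasome genes Psmb8, Psmb9 and Psmb10, and the transactivator Nlrc5. The set was chosen with earlier results of these data known, so its shares beside those of all tested genes are descriptions. All 10 were found among the 24013 genes of the count table, and all 10 were among the 13339 genes with enough counts to be tested. Psmb8 and Psmb9 had fewer than 10 counts in at least 1 library of uninduced control cells and passed this filter through the other conditions.

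RNA was sequenced from C cells, infected with a lentivirus that carries a scrambled shRNA, and from P cells, infected with a lentivirus that carries an shRNA against Prep1 (gene symbol Pknox1), a homeodomain transcription factor. Both kinds of cells had been infected and selected in puromycin, so neither stands for uninfected 3T3-L1 cells, and the libraries hold a single Prep1 shRNA. RNA was taken at day −2, in growth medium without inducers, and at day 1, after induction with 1 μM dexamethasone (a glucocorticoid), 0.5 mM IBMX (a phosphodiesterase inhibitor) and 1 μg/ml insulin in medium with FBS. Each of the 4 conditions had 2 biological replicas, which makes 8 libraries.

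A class I molecule is a heavy chain paired with B2m and filled with a short peptide, and it shows samples of the proteins of a cell to cytotoxic T cells. Most of these peptides are cut by the proteasome, are pumped into the endoplasmic reticulum by the transporter made of TAP1 and TAP2, and are loaded on the heavy chain with the help of tapasin, the product of Tapbp. Under interferon, the catalytic subunits PSMB5, PSMB6 and PSMB7 of newly made proteasomes are replaced by PSMB8, PSMB9 and PSMB10, and NLRC5, itself an interferon target, turns on the class I promoters. Fibroblasts and preadipocytes carry class I on their surface at a low level that interferon raises. In the GRCm38.p6 gene list, Psmb9, Tap1, Psmb8 and Tap2 follow each other with no other protein-coding gene between them, and together with H2-K1, H2-D1 and Tapbp they make 7 of the 10 genes on chromosome 17, the chromosome of the mouse MHC.

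The libraries held between 20428816 and 27614353 counts. Levels are given as CPM, which is read counts normalized to library sizes scaled by TMM (the trimmed mean of M-values), and 3 counts, taken as the floor of detection, came to between 0.107 and 0.160 CPM. These floors, and the counting intervals given for 2 genes, cover counting error only. A change was called at a Benjamini-Hochberg adjusted p-value under 0.1 in edgeR's quasi-likelihood test, adjusted over all tested genes, together with a ratio of more than 2 or less than 0.5. Such a gene is said to pass the test. Pknox1 had 28.1 and 26.5 CPM in the replicas of C cells and 17.3 and 18.3 CPM in those of P cells at day −2, and 38.1 and 36.5 against 23.6 and 23.8 CPM at day 1, so P cells were lower at both times. Its log2 ratios of P to C cells were −0.62 and −0.65 (edgeR adjusted p = 0.0558 and 0.0575), short of the ratio threshold. The 10 markers of preadipocytes and fibroblasts were present in every library. Their summed level was 79045 CPM in replica 1 of P cells at day −2 and between 16644 and 26569 CPM in the other 7 libraries. This library also had the lowest TMM factor, 0.837, and the fewest genes with counts, 16232, and it stands apart in the results below. The genes of this list with the highest levels in any library were Col1a2, Col1a1 and Col3a1, at up to 28501, 23559 and 15766 CPM. These highest levels were in replica 1 of P cells at day −2. Ly6a, of the same list, had at most 314 CPM and had its lowest level, 27.6 CPM, in that replica. The sum thus does not stand for each marker. The 11 leukocyte markers summed to 7.58 and 8.85 CPM in uninduced C cells, 7.56 and 8.60 in uninduced P cells, 4.54 and 5.17 in induced C cells, and 5.51 and 7.38 in induced P cells. None of these markers was at 0 in all libraries, but Ptprc, the pan-leukocyte marker, had at most 8 counts, Cd3e at most 3 and Tyrobp at most 1. The myeloid markers Csf1r, Lyz2, Cd68 and Itgam reached 144, 126, 113 and 37 counts. Of the 11 leukocyte markers 3 were tested, and 1 rose and 1 fell in P against C cells at day −2. Of all tested genes 4.83% rose and 2.15% fell there. The 8 adipocyte markers summed to 81.1 and 80.8 CPM in uninduced C cells, 236 and 247 in uninduced P cells, 187 and 187 in induced C cells, and 628 and 585 in induced P cells. In P against C cells 5 of the 8 rose at either time, where 4.83% of all tested genes rose at day −2 and 1.83% at day 1. Induction raised 3 and lowered 1 in C cells, where 10.7% of all tested genes rose and 9.68% fell. It raised 8 in P cells, where 7.65% of all tested genes rose. The part of these markers in the results for the class I genes was not tested. In bulk RNA, fewer cells with a transcript and less of it per cell cannot be told apart.

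**Figure D1:**
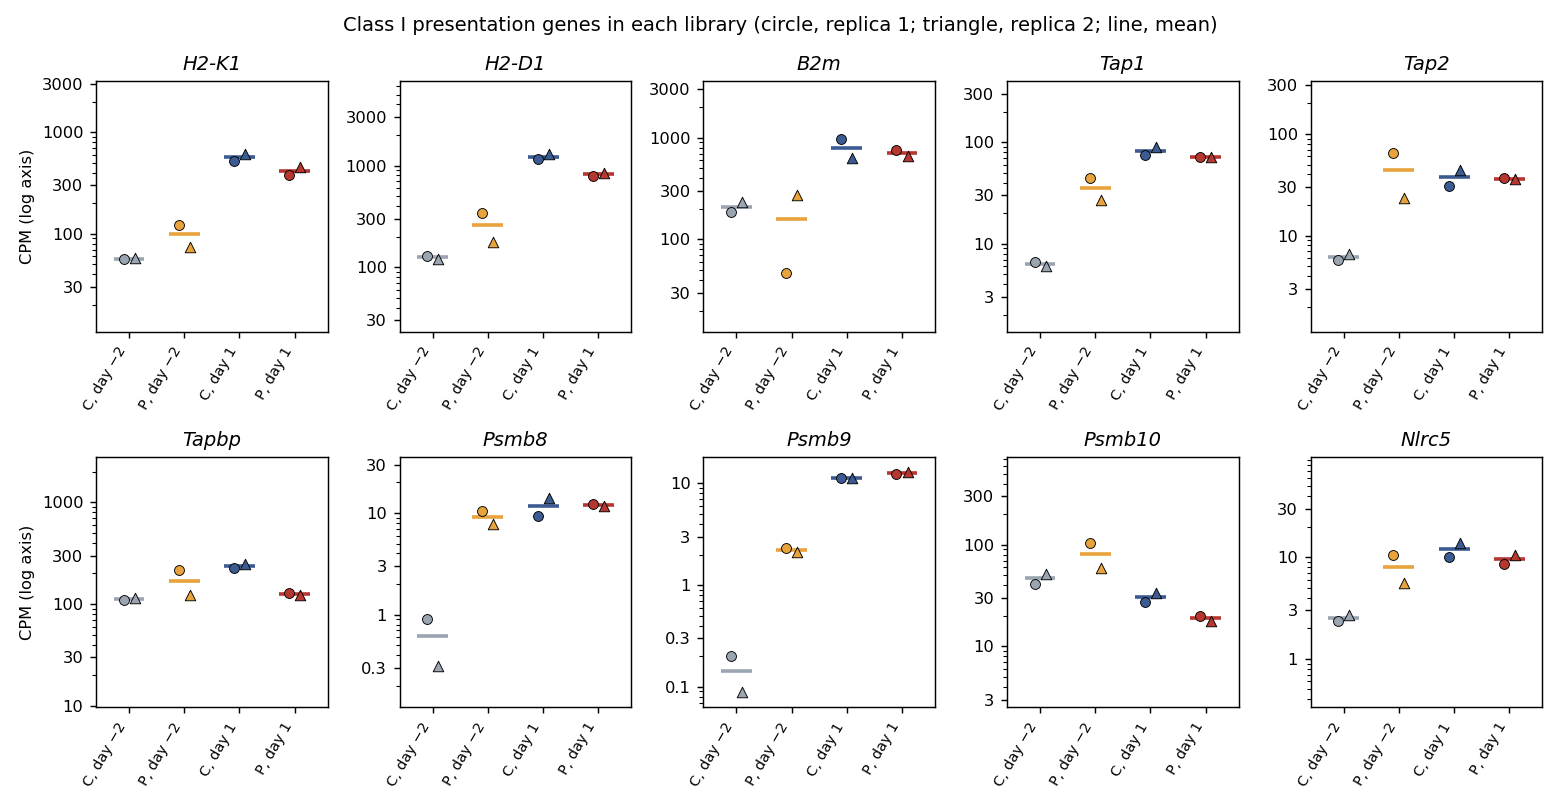
Level of each of the 10 class I presentation genes in CPM (log axis) in the 4 conditions, with circles for replica 1, triangles for replica 2 and lines for the mean of both. Every panel spans the same number of log units around its own points, and both replicas of induced C cells lie above both replicas of uninduced C cells for all genes but Psmb10.

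The heavy chains hold the peptide. H2-K1 was at 56.3 and 57.2 CPM in C cells and at 122 and 74.7 CPM in P cells at day −2. At day 1 it was at 523 and 615 CPM in C cells and at 380 and 452 CPM in P cells. H2-D1 was at 130 and 121 CPM in C cells and at 339 and 176 CPM in P cells at day −2. Both heavy chains were thus somewhat higher in uninduced P cells, with replica 1 well above replica 2. At day 1, H2-D1 was at 1152 and 1301 CPM in C cells and at 795 and 849 CPM in P cells. Induced cells of either kind were far above uninduced ones for both genes, with no overlap between any of the conditions. The counts of H2-K1 stood between 0.361 and 0.533 times those of H2-D1 in every library, and the log2 CPM of the 2 genes had a Pearson correlation of 0.995 over the 8 libraries. The 2 genes and the other class I heavy chains are close copies of each other, and how reads that fit more than 1 of them were counted is not stated, so the split between them is uncertain.

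B2m, the light chain shared by all class I molecules, had replicas far apart in uninduced P cells. Its replicas were at 186 and 233 CPM in C cells and at 46.5 and 274 CPM in P cells at day −2, from 873 and 7689 counts in the latter. At day 1 they were at 965 and 638 CPM in C cells and at 763 and 658 CPM in P cells. The replicas of uninduced P cells lay below and above those of C cells, with a log2 difference of −2.56 that only 2.13% of all tested genes exceeded in size. Relative to the summed counts of H2-K1 and H2-D1, B2m stood at 0.996 and 1.31 in uninduced C cells, at 0.101 and 1.10 in uninduced P cells, at 0.576 and 0.333 in induced C cells and at 0.649 and 0.505 in induced P cells. The low value thus belonged to replica 1 of P cells at day −2 alone, the library with the high summed level of fibroblast markers. The part of that library in the result was not tested. Patl2, which overlaps B2m in the gene list, had at most 6 counts.

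Tap1 and Tap2 encode the subunits of the peptide transporter. Tap1 was at 6.62 and 6.11 CPM in C cells and at 44.7 and 26.8 CPM in P cells at day −2, and at 75.5 and 89.1 CPM in C cells and 71.9 and 71.5 CPM in P cells at day 1. Tap2 was at 5.74 and 6.56 CPM in C cells and at 65.5 and 23.3 CPM in P cells at day −2, and at 31.0 and 44.6 CPM in C cells and 36.7 and 36.0 CPM in P cells at day 1. Uninduced C cells were the lowest condition for both, and for Tap2 the uninduced P cells overlapped with both induced conditions. The counts of Tap1 were between 0.682 and 1.15 times those of Tap2 in the 4 uninduced libraries and between 1.96 and 2.43 times in the 4 induced ones, so the 2 subunits of the transporter were not raised in equal measure. Tapbp, which encodes the protein that bridges the transporter and the empty heavy chain, varied least among the MHC-linked members. It was at 109 and 116 CPM in C cells and at 217 and 123 CPM in P cells at day −2, and at 224 and 249 CPM against 129 and 123 CPM at day 1.

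Among the immunoproteasome subunits, Psmb8 and Psmb9 were close to the floor in uninduced C cells. Psmb8 had 23 and 7 counts there, which is 0.917 and 0.310 CPM, against 10.5 and 7.74 CPM in uninduced P cells. At day 1 it was at 9.31 and 14.1 CPM in C cells and at 12.2 and 11.7 CPM in P cells. Psmb9 had 5 and 2 counts in uninduced C cells, which is 0.199 and 0.0886 CPM, against 2.34 and 2.10 CPM in uninduced P cells. Replica 2 of uninduced C cells was under the floor of 3 counts. At day 1, Psmb9 was at 11.2 CPM in both replicas of C cells and at 12.3 and 13.0 CPM in P cells. Over the pooled replicas, the ratio of uninduced P to uninduced C cells was 14.1 for Psmb8 (95% exact interval 9.72 to 21.1) and 15.0 for Psmb9 (7.02 to 38.2, from 103 against 7 counts). The ratio of induced to uninduced C cells was 18.6 for Psmb8 (12.9 to 27.8) and 76.5 for Psmb9 (36.9 to 191).

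Psmb10, whose gene lies on chromosome 8 outside the MHC, had another pattern. It was at 41.6 and 52.2 CPM in C cells and at 104 and 59.3 CPM in P cells at day −2. At day 1 it was at 27.7 and 33.7 CPM in C cells and at 20.1 and 17.9 CPM in P cells. Psmb10 was the only one of the 10 genes that lay lower in both induced conditions than in both uninduced ones. The counts of Psmb10 were 45.4 and 168 times those of Psmb8 in uninduced C cells and 1.65 and 1.53 times in induced P cells.

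The constitutive subunits that the immunoproteasome subunits replace moved little. Psmb5 lay between 84.1 and 116 CPM, Psmb6 between 143 and 189 CPM and Psmb7 between 94.5 and 186 CPM over the 8 libraries, and none of them passed the test in any of the 4 comparisons. Psmb8 counts were 0.872% and 0.291% of those of Psmb5 in uninduced C cells, 9.13% and 7.61% in uninduced P cells, 11.1% and 14.3% in induced C cells, and 13.9% and 13.6% in induced P cells. Psmb9 counts were 0.107% and 0.0552% of those of Psmb6 in uninduced C cells, 1.24% and 1.22% in uninduced P cells, 7.31% and 7.58% in induced C cells, and 8.52% and 9.09% in induced P cells. On this scale the uninduced P cells stood near the induced cells for Psmb8 and between the uninduced C cells and the induced cells for Psmb9. Psmb10 counts were 22.4% and 29.3% of those of Psmb7 in uninduced C cells, 110% and 37.2% in uninduced P cells, 19.6% and 27.8% in induced C cells, and 15.4% and 12.7% in induced P cells. These ratios are of counts and not per length, so they compare libraries and not the amounts of the 2 subunits.

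**Figure D2:**
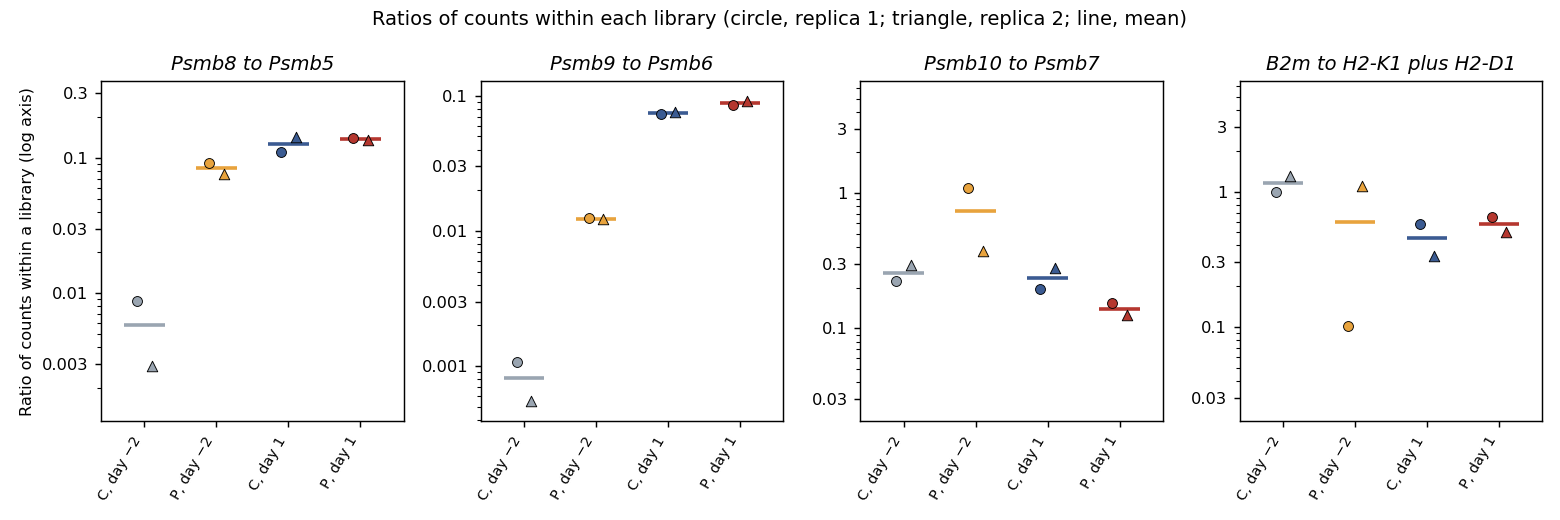
Ratio of the counts of each immunoproteasome gene to the counts of the constitutive subunit it replaces, and of B2m to the summed heavy chains, within each library (log axis, circles for replica 1, triangles for replica 2, lines for the mean). Psmb8 to Psmb5 rises from below 1% in uninduced C cells to between 7.61% and 14.3% elsewhere, and replica 1 of P cells at day −2 stands apart for Psmb10 to Psmb7 and for B2m.

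Nlrc5, the transactivator of class I genes, was at 2.35 and 2.70 CPM in C cells and at 10.5 and 5.56 CPM in P cells at day −2. At day 1 it was at 10.1 and 13.8 CPM in C cells and at 8.55 and 10.5 CPM in P cells. Uninduced C cells were again the lowest, and the other 3 conditions overlapped. Of the RNAs that overlap Nlrc5 in the gene list, 9330175E14Rik had at most 8 counts and Mir7072 had none.

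The first comparison asked which of the genes differed between P and C cells before induction. Of the 10 genes, 6 rose and none fell, against 4.83% of all tested genes that rose, 2.15% that fell and 6.98% that changed in either direction. The 6 were 1 heavy chain gene, both transporter genes, 2 immunoproteasome genes and the transactivator. The 2 immunoproteasome genes, Psmb8 and Psmb9, passed the filter on low counts through conditions other than uninduced C cells. With at least 10 counts in every library they are not tested. Then 3 of the 8 members left passed, beside 685 of all genes tested there. Both replicas of P cells were above both replicas of C cells for 9 of the 10 genes, where this was so for 26.5% of all tested genes. The median log2 ratio was 1.35 over the 10 genes and 0.01 over all tested genes.

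Psmb9 and Psmb8 had the largest ratios of P to C cells at day −2, with log2 values of 3.88 (SE 0.34, edgeR adjusted p = 0.00242) and 3.86 (SE 0.47, edgeR adjusted p = 0.00665). Tap2 followed at 2.85 (SE 0.48, edgeR adjusted p = 0.0206) and Tap1 at 2.49 (SE 0.26, edgeR adjusted p = 0.00415). Nlrc5 rose by 1.66 (SE 0.35, edgeR adjusted p = 0.0453) and H2-D1 by 1.03 (SE 0.29, edgeR adjusted p = 0.0952) on the log2 scale. The H2-D1 ratio was 2.05, just over the threshold, and its call was lost in 13 of 17 other settings. The remaining 4 genes did not pass the test. Their log2 ratios were 0.79 for H2-K1 (edgeR adjusted p = 0.115), 0.79 for Psmb10 (edgeR adjusted p = 0.146), 0.60 for Tapbp (edgeR adjusted p = 0.203) and −0.38 for B2m (edgeR adjusted p = 0.723). The 95% interval of the log2 ratio of B2m ran from −2.02 to 1.25, so these libraries do not tell a rise from a fall in B2m.

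Replica 1 of P cells at day −2 was above replica 2 for 9 of the 10 genes. Without replica 1, Tap1, Tap2, Psmb8, Psmb9 and Nlrc5 still passed the test, while H2-D1 did not, with a log2 ratio of 0.49, and B2m turned to 0.39. Without replica 2, 9 genes passed, with B2m at −2.17, but so did 4290 of all tested genes, against 931 in the full fit. Without either replica of C cells at day −2, only Tap1, Psmb8 and Psmb9 passed, with edgeR adjusted p-values of 0.218 and 0.190 for Tap2 and of 0.318 and 0.275 for Nlrc5. Nlrc5 was also lost without replica 1 or 2 of P cells at day 1 (edgeR adjusted p = 0.107 and 0.108). In a fit of the 4 uninduced libraries alone, none of the 10 genes passed, with edgeR adjusted p-values of 0.106 to 0.380 for the 6. In that fit 7 of the 10 had an unadjusted p under 0.05, as had 12.4% of all tested genes, and 86 of all tested genes passed.

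**Figure D3:**
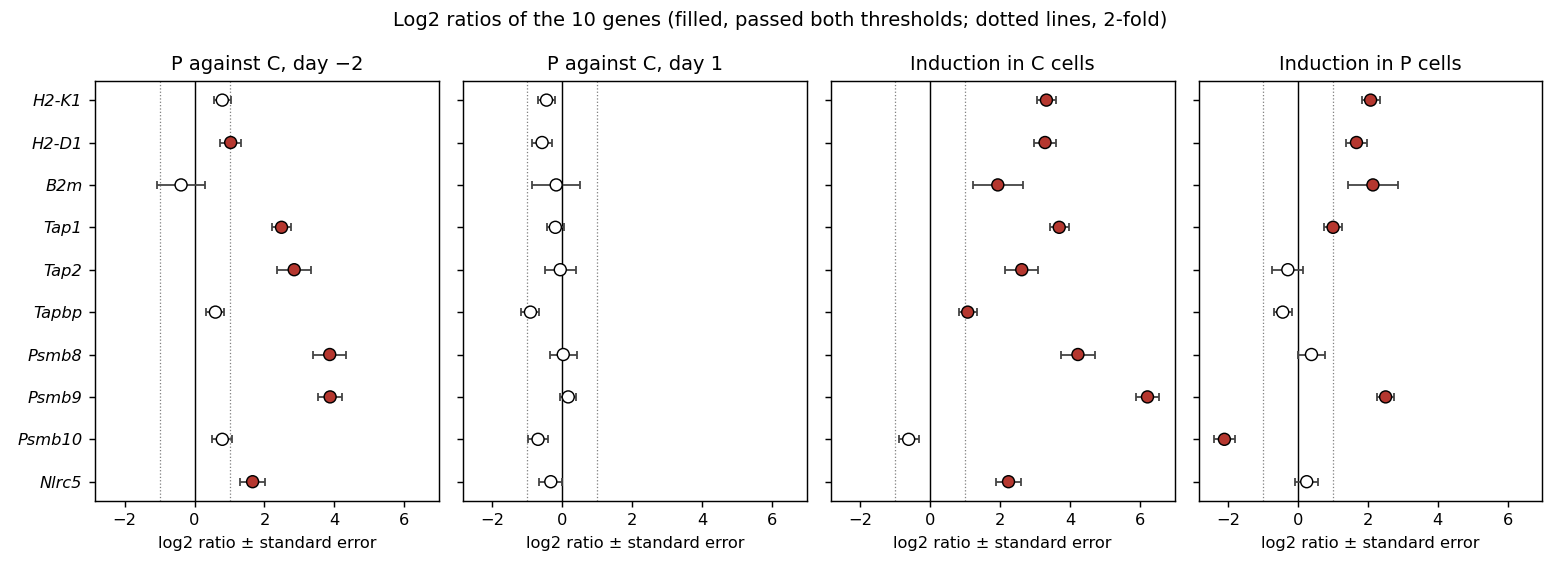
Log2 ratio of each gene with its standard error in the 4 comparisons, P to C cells before and after induction and induced to uninduced cells of either kind, on a shared axis. Filled circles passed both thresholds, and the dotted lines mark a ratio of 2 in either direction. There are 6 filled circles to the right at day −2, none at day 1, 9 for induction in C cells, and 5 to the right and 1 to the left for induction in P cells.

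The same comparison at day 1 asked whether the cells still differed after induction. None of the 10 genes passed the edgeR test, where 4.06% of all tested genes did (1.83% that rose and 2.23% that fell), and none passed in DESeq2. With either tool, 2 of the 10 had an unadjusted p under 0.05, where 16.2% of all tested genes had one in edgeR and 17.1% in DESeq2. In edgeR these were Tapbp, with a log2 ratio of −0.91 (SE 0.26, edgeR adjusted p = 0.127), and Psmb10, with −0.69 (SE 0.28, edgeR adjusted p = 0.294). The log2 ratios of the other 8 ran from −0.58 for H2-D1 to 0.17 for Psmb9, with a median of −0.26 over the 10 genes and 0.01 over all tested genes. Both replicas of P cells were below both of C cells for 5 genes, H2-K1, H2-D1, Tap1, Tapbp and Psmb10, and above them for Psmb9, where this was so for 29.9% and 30.6% of all tested genes. The 95% intervals of the log2 ratio ran from −0.78 to 0.38 for Tap1, from −0.88 to 0.94 for Psmb8 and from −0.36 to 0.70 for Psmb9. They do not reach the size of the difference these genes had at day −2. For B2m the interval, from −1.81 to 1.46, was too wide to say.

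Induction was compared next, day 1 against day −2 in each kind of cell. The 2 times also differ in days in culture, in time since confluence and in serum, calf serum before and FBS after. No library holds uninduced cells of day 1, so these cannot be told apart from the inducers. Induction stands for all of them here. In C cells 9 of the 10 genes rose and none fell, against 10.7% of all tested genes that rose, 9.68% that fell and 20.4% that changed in either direction. Among the 9 were Psmb8 and Psmb9, which passed the filter on low counts through conditions other than uninduced C cells. With at least 10 counts in every library they are not tested. Then 7 of the 8 members left rose, beside 2002 of all genes tested there that passed. Psmb9 rose by 6.21 on the log2 scale (SE 0.33, edgeR adjusted p = 8.03e-05), Psmb8 by 4.23 (SE 0.48, edgeR adjusted p = 0.00133) and Tap1 by 3.69 (SE 0.27, edgeR adjusted p = 0.000267). The heavy chains rose about alike, H2-K1 by 3.32 (SE 0.27, edgeR adjusted p = 0.000361) and H2-D1 by 3.29 (SE 0.32, edgeR adjusted p = 0.000724). Tap2 rose by 2.62 (SE 0.48, edgeR adjusted p = 0.00878), Nlrc5 by 2.24 (SE 0.36, edgeR adjusted p = 0.00518) and Tapbp by 1.08 (SE 0.26, edgeR adjusted p = 0.0240). B2m rose by 1.94 (SE 0.71, edgeR adjusted p = 0.0900), a call that was lost in 8 of 17 other settings, among them 6 of the 8 that leave out 1 library, with edgeR adjusted p-values up to 0.324. Tapbp was lost without either replica of C cells at day −2 (edgeR adjusted p = 0.149 and 0.131) and without replica 2 of C cells at day 1 (edgeR adjusted p = 0.111). Psmb10 had a log2 ratio of −0.61 (edgeR adjusted p = 0.155) and did not pass.

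In P cells, 5 of the 10 genes rose and 1 fell, against 7.65% and 10.4% of all tested genes, 18.0% in either direction. Psmb9 rose by 2.51 (SE 0.24, edgeR adjusted p = 0.00105), H2-K1 by 2.08 (SE 0.26, edgeR adjusted p = 0.00243) and H2-D1 by 1.68 (SE 0.30, edgeR adjusted p = 0.00990) on the log2 scale. B2m rose by 2.15 (SE 0.72, edgeR adjusted p = 0.0765) and Tap1 by 1.01 (SE 0.25, edgeR adjusted p = 0.0307). Psmb10 fell by 2.10 (SE 0.29, edgeR adjusted p = 0.00398), from 104 and 59.3 CPM to 20.1 and 17.9 CPM. Psmb8, Nlrc5, Tap2 and Tapbp did not pass, with log2 ratios of 0.39, 0.25, −0.29 and −0.43. The last 3 turned in sign when 1 replica of uninduced P cells was left out, Tap2 to 0.63 and Tapbp to 0.03 without replica 1 and Nlrc5 to −0.14 without replica 2. The call of B2m was lost without either replica of C cells at either time or of P cells at day 1, with edgeR adjusted p-values of 0.126 to 0.237, and that of Tap1 without replica 2 of P cells at day −2, where its log2 ratio was 0.68, and without either replica of P cells at day 1 (edgeR adjusted p = 0.145 and 0.150). Tap1 also fell short of the ratio threshold in DESeq2 and with its size factors, at 0.98 in both. In the fit of the P libraries alone neither gene passed, with edgeR adjusted p-values of 0.156 for Tap1 and 0.242 for B2m.

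The medians of the 10 log2 ratios were 2.95 for induction in C cells and 0.70 for induction in P cells, beside −0.01 and 0.02 for all tested genes. The 10 genes together took 0.0556% and 0.0642% of all counts in uninduced C cells, 0.0806% and 0.0784% in uninduced P cells, 0.299% and 0.291% in induced C cells, and 0.234% and 0.235% in induced P cells. The comparisons of P with C cells at day −2 and of induced with uninduced C cells share the uninduced C libraries, so their ratios are given side by side and their likeness was not tested.

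The levels of uninduced P cells were also set against the mean of induced C cells, replica 1 first. Tap2 stood at 173% and 61.5% of that mean, Psmb8 at 89.9% and 66.0%, Tapbp at 91.8% and 51.9%, Nlrc5 at 87.7% and 46.5% and Tap1 at 54.3% and 32.6%. H2-D1 stood at 27.7% and 14.3%, B2m at 5.80% and 34.2%, Psmb9 at 20.9% and 18.7% and H2-K1 at 21.5% and 13.1%. The replicas differed by up to several fold, and no difference between genes in these shares was tested. In uninduced C cells the shares of the mean of both replicas were 16.3% for Tap2, 5.23% for Psmb8, 47.5% for Tapbp, 21.1% for Nlrc5, 7.74% for Tap1, 10.3% for H2-D1, 26.1% for B2m, 1.28% for Psmb9 and 9.98% for H2-K1. Psmb10 stood at 337% and 193% in uninduced P cells and at 153% in uninduced C cells, above induced C cells in both.

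The responses of P and C cells to induction were then compared directly, as the interaction of cell kind and time. By construction, this is also the day 1 difference between P and C cells minus the day −2 one. For Psmb8, Psmb9 and Tap1, the day 1 differences were 0.03, 0.17 and −0.20 on the log2 scale. The day −2 ones were 3.86, 3.88 and 2.49. In these genes the interaction thus mostly restated the day −2 difference. The log2 ratio of day 1 to day −2 was lower in P than in C cells for 9 of the 10 genes, Psmb10 included, which was at −2.10 in P cells and −0.61 in C cells, and 3 passed at an edgeR adjusted p-value under 0.1, where 1.93% of all tested genes passed in this direction, 0.435% in the other and 2.37% in either. These were Psmb8, with a difference of −3.84 on the log2 scale (SE 0.61, edgeR adjusted p = 0.0414), Psmb9, with −3.71 (SE 0.42, edgeR adjusted p = 0.0130), and Tap1, with −2.68 (SE 0.36, edgeR adjusted p = 0.0222). The differences of Tap2 (−2.91), Nlrc5 (−1.99), H2-D1 (−1.61), Tapbp (−1.51), Psmb10 (−1.49) and H2-K1 (−1.25) had edgeR adjusted p-values of 0.109 to 0.188 and did not pass, although their unadjusted p-values were under 0.05. B2m had a difference of 0.21 (SE 0.97, edgeR adjusted p = 0.904). With at least 10 counts in every library, where Psmb8 and Psmb9 are not tested, only Tap1 passed, beside 310 of all genes tested there. The count of 3 depended on the libraries. It was 0 without either replica of P cells at day 1, 1 (Psmb9) without replica 2 of C cells at either time, 9 without replica 1 of P cells at day −2 and 10 without its replica 2, and 9 in DESeq2. Over all tested genes the count was 316 in the full fit, 31 without either replica of P cells at day 1, 46 and 54 without replica 2 of C cells at day −2 or day 1, 1516 and 8332 without replica 1 or 2 of P cells at day −2, and 930 in DESeq2.

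**Figure D4:**
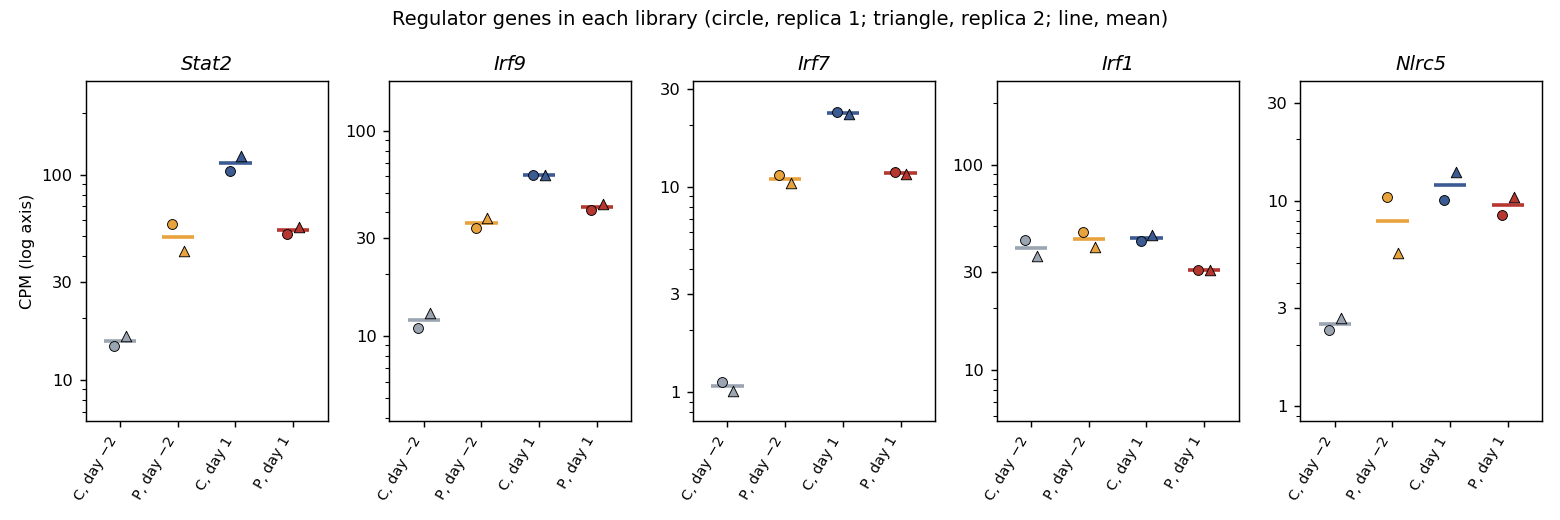
Level in CPM (log axis, the same number of log units in every panel) of Stat2, Irf9, Irf7 and Irf1, regulators of the interferon response, beside Nlrc5, with circles for replica 1, triangles for replica 2 and lines for the mean. Stat2, Irf9 and Irf7 are at least 2-fold higher in uninduced P than in uninduced C cells in every replica, while Irf1 lies between 30.6 and 46.9 CPM throughout.

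The genes that act upstream of class I expression were taken as a list of regulators. Of its 18 tested genes, 3 rose and 1 fell in P against C cells at day −2, where 4.83% of all tested genes rose and 2.15% fell. Stat2 and Irf9 encode parts of the complex that carries the type I interferon signal to the nucleus. Stat2 was at 14.6 and 16.4 CPM in uninduced C cells, 57.2 and 42.6 in uninduced P cells, 105 and 123 in induced C cells, and 51.5 and 55.7 in induced P cells. Irf9 was at 11.0 and 13.0 CPM in uninduced C cells, 33.4 and 37.5 in uninduced P cells, 61.0 and 60.7 in induced C cells, and 40.9 and 43.7 in induced P cells. For both, uninduced C cells were the lowest condition and induced C cells the highest, with no overlap to the others, and for Stat2 the P cells overlapped between the 2 times. The log2 ratio between uninduced P and C cells was 1.69 for Stat2 (SE 0.20, edgeR adjusted p = 0.00550) and 1.56 for Irf9 (SE 0.16, edgeR adjusted p = 0.00349), and both calls were lost only in the fit of the uninduced libraries alone, 1 of 17 other settings.

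Irf7, which encodes an interferon-induced factor that amplifies the interferon response, was at 1.12 and 1.02 CPM in uninduced C cells, 11.4 and 10.5 in uninduced P cells, 23.2 and 22.6 in induced C cells, and 11.8 and 11.6 in induced P cells. Irf7 rose by 3.35 on the log2 scale in P against C cells at day −2, a call that held in all 17 other settings. Nlrc3, a relative of Nlrc5, fell by 2.52, a call lost in 6 of 16 other settings. At day 1 Stat2 was the only called gene of the list, and it fell by 1.09 in P against C cells, a call lost in 5 of 17 other settings. Irf7 at day 1 had a log2 ratio of −0.97 (edgeR adjusted p = 0.0265), just short of the ratio threshold. Of the 18 regulators, 12 had both replicas of P cells below both of C cells at day 1, and 1 had them above. This was so for 29.9% and 30.6% of all tested genes. Irf1, the factor most directly tied to class I induction by interferon gamma, passed in none of the 4 comparisons, with log2 ratios from −0.52 to 0.15.

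In the response of C cells to induction, 5 of the 18 regulators rose, beside 10.7% of all tested genes, and Nlrc3 fell by 4.71. Irf7 rose by 4.42, Stat2 by 2.88 and Irf9 by 2.34, while Rfxank and Irf2 rose by 1.02 and 1.00. In P cells none of the 18 rose, beside 7.65% of all tested genes, and Nfkb1, a subunit of NF-kappaB, fell by 1.23. The difference between the responses passed for Irf7 (−4.32), Stat2 (−2.77) and Irf9 (−2.09). Of the 9 tested interferon receptors, kinases and SOCS genes, none was called in the uninduced cells, where 6.98% of all tested genes were. At day 1 Socs1 alone was called, where 4.06% of all tested genes were. Socs1, which encodes a brake on the interferon signal, fell by 1.40 in P against C cells, a call lost in 7 of 17 other settings. Of the 9, 8 had both replicas of P cells below both of C cells at day 1, and 1 had them above. This was so for 29.9% and 30.6% of all tested genes. Socs3 rose with induction by 2.63 in C cells and by 1.45 in P cells, while Jak2 rose by 1.26 in C cells. Ifng and Ifnb1, the interferon genes of this list, had too few counts to be tested.

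Of the 24 other class I heavy chain genes listed, 17 were tested. H2-Q4 and H2-T10 rose in P against C cells at day −2, by 1.89 (SE 0.36, edgeR adjusted p = 0.0316) and 1.58 (SE 0.25, edgeR adjusted p = 0.0154), and both calls were lost without either replica of C cells at day −2. H2-Q4 was at 4.58 and 3.15 CPM in uninduced C cells, 19.0 and 9.81 in uninduced P cells, 43.0 and 56.8 in induced C cells, and 52.3 and 54.5 in induced P cells, an order of conditions close to that of the classical heavy chains. Induction raised 12 of the 17 in C cells and 6 of the 17 in P cells, against 10.7% and 7.65% of all tested genes. In C cells these were H2-K2, H2-Q1, H2-Q2, H2-Q4, H2-Q5, H2-Q10, H2-T10, H2-T22, H2-T23, H2-Bl, Cd1d1 and Hfe, and in P cells H2-K2, H2-Q4, H2-Q5, H2-T23, H2-Bl and Hfe. Several of these had few counts in uninduced cells and passed the filter on low counts through the induced ones. Their ratios rest on few reads. The tallies of 12 and 6 of the 17 are thus in part set by the filter and are descriptions only. The uninduced C libraries held 0 and 2 counts of H2-Q10, 3 and 0 of H2-Q2, 2 and 5 of H2-Q1, 3 and 4 of H2-Bl, 4 and 4 of Hfe and 5 and 4 of H2-K2. Among the better counted ones, the rises in C cells were 3.69 for H2-Q4, 1.81 for H2-T10, 1.61 for H2-T22 and 1.13 for Cd1d1. The calls in P cells were lost in 11 of 16 other settings for H2-Q5, in 6 of 16 for H2-K2 and in 5 of 17 for H2-T23. The response of H2-T10 in P cells minus that in C cells was −1.98 on the log2 scale (SE 0.34, edgeR adjusted p = 0.0515). Cd1d1, which presents lipids and not peptides, fell by 1.30 in P against C cells at day 1, a call lost in 4 of 17 other settings. As with H2-K1 and H2-D1, reads shared between these copies make single values uncertain.

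The general machinery around these genes was also followed by lists. Of the 15 constitutive proteasome genes tested, none was called in P against C cells at either time. Of all tested genes 6.98% were called at day −2 and 4.06% at day 1. The median log2 ratio of the 15 was −0.44 at day −2, with 3 of them above 0, and 0.05 at day 1, with 10 above 0. Over all tested genes it was 0.01 at both times. Psma1 was called in both inductions, with rises of 1.92 in C cells and of 2.34 in P cells. It was at 41.2 CPM in replica 1 and 123 CPM in replica 2 of uninduced P cells. The proteasome activator genes Psme1 and Psme2, which interferon also induces, passed in none of the 4 comparisons, with log2 ratios from −0.48 to 0.02 and from −0.64 to 0.37. Of the 8 loading and trimming genes, Tapbpl, a relative of tapasin that edits peptides, rose by 1.33 in uninduced P against C cells and fell by 1.73 with induction in P cells. The rise was lost in 10 of 17 other settings, among them the one without replica 1 of P cells at day −2. Of the 6 cytosolic peptidases tested, Lap3 fell by 1.17 with induction in P cells. In C cells its log2 ratio was −0.94 (edgeR adjusted p = 0.00681), short of the ratio threshold, and the difference between the responses was −0.23 (edgeR adjusted p = 0.577). Only 3 of the 8 class II genes had enough counts to be tested, and in uninduced P against C cells H2-DMa rose by 1.37 and Cd74, the invariant chain, fell by 1.53 with at most 29 counts in those libraries. Both calls were lost in 8 other settings, of 17 for H2-DMa and of 16 for Cd74. With induction Cd74 rose by 2.38 in C cells and by 2.20 in P cells, where it ended lower by a log2 ratio of −1.71 at day 1, a call lost in 4 of 16 other settings. H2-DMa rose by 1.84 with induction in C cells. Over all these lists, 7 genes rose and 2 fell of 80 tested in P against C cells at day −2, beside 4.83% and 2.15% of all tested genes.

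The 10 genes were also compared with each other over the 8 libraries. The Pearson correlation of the log2 CPM of a gene with the mean of the other 9 was 0.982 for Tap1, 0.978 for Nlrc5, 0.938 for Psmb9, 0.916 for H2-D1, 0.904 for Psmb8, 0.887 for Tap2, 0.877 for H2-K1, 0.675 for Tapbp, 0.325 for B2m and −0.463 for Psmb10. These values are descriptions over 8 libraries of 4 conditions that share their scaling, and the large steps between conditions set most of them. Psmb10 was the one gene with a negative value, and B2m had the lowest positive one. Of the 9992 genes with a mean of at least 5 CPM outside the set, Ifi35, Tle2, Susd6, Bst2 and Rnf144a were nearest to the mean standardised profile of the 10, with Pearson correlations of 0.997, 0.995, 0.995, 0.995 and 0.994. Ifi35 had means of 13.9, 43.2, 72.2 and 53.9 CPM in uninduced C, uninduced P, induced C and induced P cells, and Bst2 had 15.6, 86.0, 204 and 101 CPM. In the same order Tle2 had 13.5, 38.6, 67.4 and 47.7 CPM, Susd6 had 50.7, 122, 225 and 184 CPM, and Rnf144a had 5.88, 15.5, 30.1 and 22.9 CPM. By Spearman's correlation 5 other genes came first, Amigo3, Mx2, Fos, Fosb and Abtb1. The choice of the nearest genes thus depended on the measure.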

How the data were processed

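RNA of 8 libraries, 4 conditions with 2 biological replicas each, was sequenced on the Ion Torrent system. The authors removed artifacts (FASTX-Toolkit), aligned the reads to mm9 with TopHat 2.0.9 and counted them per gene of the UCSC refGene annotation with R packages. The deposited values are these raw counts per NCBI gene, without normalization. How reads that fit several genes, or either strand, were handled is not given in the sources used here. The authors used DESeq for their own tests.

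Symbols came from a RefSeq list of another assembly (GRCm38.p6), used for names and neighbours only. It matched 23929 of 24013 genes, and 84 had no match. The tests were run with edgeR 4.0.16, on limma 3.58.1 and R 4.3.3. After filterByExpr, 13339 genes were scaled by TMM and fitted in 1 quasi-likelihood model with a mean per condition over all 8 libraries. CPM used the scaled sizes, and log2 CPM a prior count of 2. A gene was called at a two-sided Benjamini-Hochberg adjusted p-value under 0.1 and a ratio over 2 or under 0.5, the thresholds of the study, and the difference in response at an adjusted p-value under 0.1 alone. The p-values use a spread between replicas pooled over all 4 conditions and moderated across genes, not that of the compared conditions alone. Over all tested genes the SD of the log2 difference between replicas was 0.34 in uninduced C cells and 1.00 in uninduced P cells. It was 0.48 in induced C cells and 0.52 in induced P cells. An exact permutation test of 2 against 2 cannot go below 0.333. Ratios of low counts have exact 95% intervals on pooled counts. The script was tested on simulated counts.

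The 10 genes and the gene and marker lists were chosen with earlier results of these data known. Genes outside the 10 were named where called in any comparison, apart from Psmb5, Psmb6, Psmb7, Psme1, Psme2 and Irf1, named in any case. A gene of the regulator list is not reported here. H2-L, H2-T9 and Nrdc had no match. The alternatives were DESeq2 1.42.0, its size factors or library totals, other count filters, the libraries of a comparison alone, the replica number as a block, other thresholds and each library left out. Levels were not compared between genes, since transcript lengths were not used here. No label says that a replica number marks a shared culture. Libraries of the same number deviated from their condition means with correlations of −0.355 to 0.209 over genes, so the numbers were not taken as pairs.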

Additional observations from a re-analysis of the deposited data

Results flagged for a closer look

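The interaction test of edgeR was read at an adjusted p-value under 0.1. By it, P and C cells responded differently to induction for 3 of the 10 class I genes and 4 of the 80 genes tested in the pathway lists. Of all tested genes 2.37% passed in either direction and 1.93% in the direction of these genes. The response of P cells minus that of C cells was −2.68 on the log2 scale for Tap1, −3.84 for Psmb8 and −3.71 for Psmb9. It was −1.98 for H2-T10, −4.32 for Irf7, −2.09 for Irf9 and −2.77 for Stat2. In all 7 genes uninduced P cells were above uninduced C cells. By construction, these negative values mean that the log2 ratio of day 1 to day −2 was lower in P than in C cells. The difference of Irf7 passed in all 16 other settings, those of Irf9 and Stat2 in 13 and that of H2-T10 in 9. That of Tap1 passed in 11 of 16, and those of Psmb9 and Psmb8 in 13 and 9 of 15. For Tap1, Psmb8 and Psmb9 the result mostly restated the day −2 difference between the kinds of cells. P and C cells differed by −0.20, 0.03 and 0.17 in these genes at day 1, and by 2.49, 3.86 and 3.88 at day −2. For H2-T10, Irf7, Irf9 and Stat2 the day 1 values were −0.40, −0.97, −0.52 and −1.09. Their day −2 values were 1.58, 3.35, 1.56 and 1.69, the larger part of the difference in response in these genes too.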

How the results depend on the processing

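The 6 calls of P against C cells at day −2 became 3 (Tap1, Tap2, Nlrc5) with at least 10 counts in every library, where Psmb8 and Psmb9 are not tested, and 0 with only the uninduced libraries. The 3 calls of the difference in response became 9 in DESeq2, 7 without a filter on low counts and 1 with at least 10 counts in every library. Without 1 library at a time, the calls ranged from 3 to 9 at day −2, stayed at 0 at day 1, and ranged from 7 to 9 for induction in C cells, 4 to 6 in P cells and 0 to 10 for the difference in response, where the lone replica left is assumed to vary like the others. Under a replicate block on the replica number, the calls were 4, 0, 8, 5 and 2 in this order, and the block lost H2-D1 and Nlrc5 at day −2, B2m in both inductions and the difference of Psmb8. Both crossings of the numbers, added after the data were seen, gave 5, 0, 9, 6 and 3 calls. The cause of these shifts was not tested.

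Values that turned in sign were those of genes not called. P against C cells at day 1 gave 0.048 for Tap2 with library totals and −6.2e-05 and −1.6e-05 for Psmb8 in DESeq2 and with its size factors. With libraries left out, log2 ratios ranged from −2.17 to 0.39 for B2m at day −2, from −0.45 to 0.12 for B2m, −0.33 to 0.22 for Tap2 and −0.28 to 0.35 for Psmb8 at day 1, from −0.85 to 0.63 for Tap2, −0.79 to 0.025 for Tapbp and −0.14 to 0.76 for Nlrc5 in the induction of P cells, and from −0.59 to 2.00 for the difference in response of B2m. Library totals gave medians of all genes of −0.18, 0.11, −0.11, 0.19 and 0.29 in the 5 tests, and lost the calls of H2-D1 at day −2 and of Tapbp and B2m in the induction of C cells. An order of levels per length was not run. Psmb9, with 7 counts over both uninduced C libraries, is limited by depth.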
